A study of Mus musculus with 5 samples.

Results

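Nuclear receptors are transcription factors that bind a hormone, vitamin, fatty acid or bile acid, or no known natural ligand, and coregulators are the proteins they recruit to switch their target genes on or off. The genes described here were taken from a list of 44 mouse nuclear receptors and coregulators, and were found by gene symbol in the annotation of the array, with 1 probe set per gene, the one with the highest mean signal. Of these 44 genes, 40 had a named probe set, 36 receptors and 4 coregulators, out of 19505 named genes in all. *Ppard*, *Nr2e3*, *Esrra* and *Ncor1* had none and are not analysed here. *Pparg*, the master receptor of adipocytes, is not on the list and is used only for comparison.

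RNA came from 3T3-L1 cells, a mouse preadipocyte line that becomes fat cells in culture. In the MM.1S group (MM-3T3-L1s, n = 3), confluent preadipocytes spent 48 h in RPMI-1640 medium across a transwell membrane with 0.4 µm pores from MM.1S cells, a human myeloma line, and the Control group (n = 2) spent the same 48 h in that medium alone. The myeloma cells were then removed and both groups were differentiated for 7 days, with 4 days in IBMX at 0.5 mM, dexamethasone at 1 µM and insulin at 5 µg/mL, 2 days in insulin and 1 day in basal medium. All arrays therefore came from cells of 1 line that had received dexamethasone, a ligand of the glucocorticoid receptor, and none from cells sampled during the exposure itself. The labels do not say whether replicates were separate cultures, so a p-value here reflects the spread among these samples alone, which may be technical.

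In fat cells, nuclear receptors turn small molecules into changes in gene expression. The receptors for thyroid hormone, retinoic acid, vitamin D, fatty acids, bile acids and foreign chemicals bind DNA together with a retinoid X receptor, while steroid receptors bind as pairs of their own kind, and several orphan receptors act alone. Coactivators of the NCOA family help to open chromatin at target genes, and corepressors such as NRIP1 act against them.

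Values are log2 signals from robust multi-array averaging (RMA), so 1 unit is a doubling. Signals of different genes come from different probes and were not ranked against each other. A background level of 3.59 was taken as the 95th percentile of the mean signal of 1452 olfactory, vomeronasal and taste receptor genes. On this scale, 25 of the 40 members lay above the background level and 15 lay at or below it. Just inside were *Nr4a2*, at a mean of 3.61 over the 5 arrays, and *Thrb*, at 3.69, and just outside were *Rxrg*, at 3.41, and *Nr5a1*, at 3.20. A gene was called higher or lower in MM-3T3-L1s by the thresholds of the study's methods, a fold change above 1.5 with an unadjusted p of 0.05 or less, here from limma's moderated test.

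Markers of the cell types that a culture could hold were read in the same way, and for 3 of the 6 marker lists the ranges of both groups did not overlap. The mean log2 signal over 14 adipocyte markers was 9.27 to 9.37 in MM-3T3-L1s and 9.23 to 9.40 in controls, with *Retn* called lower. Over 12 preadipocyte and fibroblast markers it was 7.95 to 8.0 in MM-3T3-L1s and 8.07 to 8.17 in controls. Of these 12, 10 had fold changes below 0, with a median log2FC of -0.15, and none was called. All MM.1S values lay under both Control values for 6 of them (12.2% of all probe sets) and over both for 2 (11.9%). Over 9 macrophage markers the mean log2 signal was 3.88 to 4.05 in MM-3T3-L1s and 3.72 to 3.74 in controls. Of these 9, 7 had fold changes above 0, and *Cd14* was called higher. *Lyz2*, *Fcgr1* and *Ptprc* were above the background level with log2 fold changes of 0.22, 0.12 and 0.12. *Adgre1*, *Csf1r*, *Itgam*, *Mrc1* and *Cd163* were at or below it. The 11 plasma and B cell markers averaged 3.16 to 3.28 in MM-3T3-L1s and 3.08 to 3.14 in controls, with 7 of 11 fold changes above 0 and none called. Of these, *Sdc1*, which other cells also carry, and *Irf4* were above the background level, with log2 fold changes of 0.06 and 0.39, and the other 9 were at or below it, *Jchain*, *Mzb1* and *Tnfrsf17* on every array and *Cd79a* and *Cd79b* with 0.34 and 0.33. None of 7 endothelial and 10 muscle markers was called. The part of these markers in the results below was not tested, and in bulk RNA fewer cells of a type cannot be told apart from less RNA per cell.

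None of the 40 members was called higher and none was called lower, where 0.91% of all probe sets were called higher and 1.44% lower. At an unadjusted p of 0.05 or less and any fold change, limma counted 3 members, against 7.58% of all probe sets, a share near the background. They were *Nr0b2* and *Nr2e1*, above controls (3.48% of all probe sets), and *Nr5a2*, below controls (4.11% of all probe sets). The test that the study's methods name, without moderation of the spread, counted 2 members, *Nr0b2* and *Ncoa2*. After Benjamini-Hochberg adjustment over all 22206 probe sets, limma left 0 members and 0 of all probe sets, and the members' adjusted p-values lay between 0.596 and 0.996. The log2 fold changes (log2FC) of the 40 ran from -0.53 to 0.48 with a median of -0.01, beside a median of 0.01 over all named genes, and 20 members lay above 0 and 20 below. Their median size without sign was 0.16, against 0.15 over all named genes. All 3 MM.1S values exceeded both Control values for 3 members (11.9% of all probe sets), and all were under both for 9 (12.2% of all probe sets). Among the 25 members above the background level these counts were 2 and 5, or 7 in all, a share equal to the 28% of named genes above background whose groups lay apart.

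**Figure D1:**
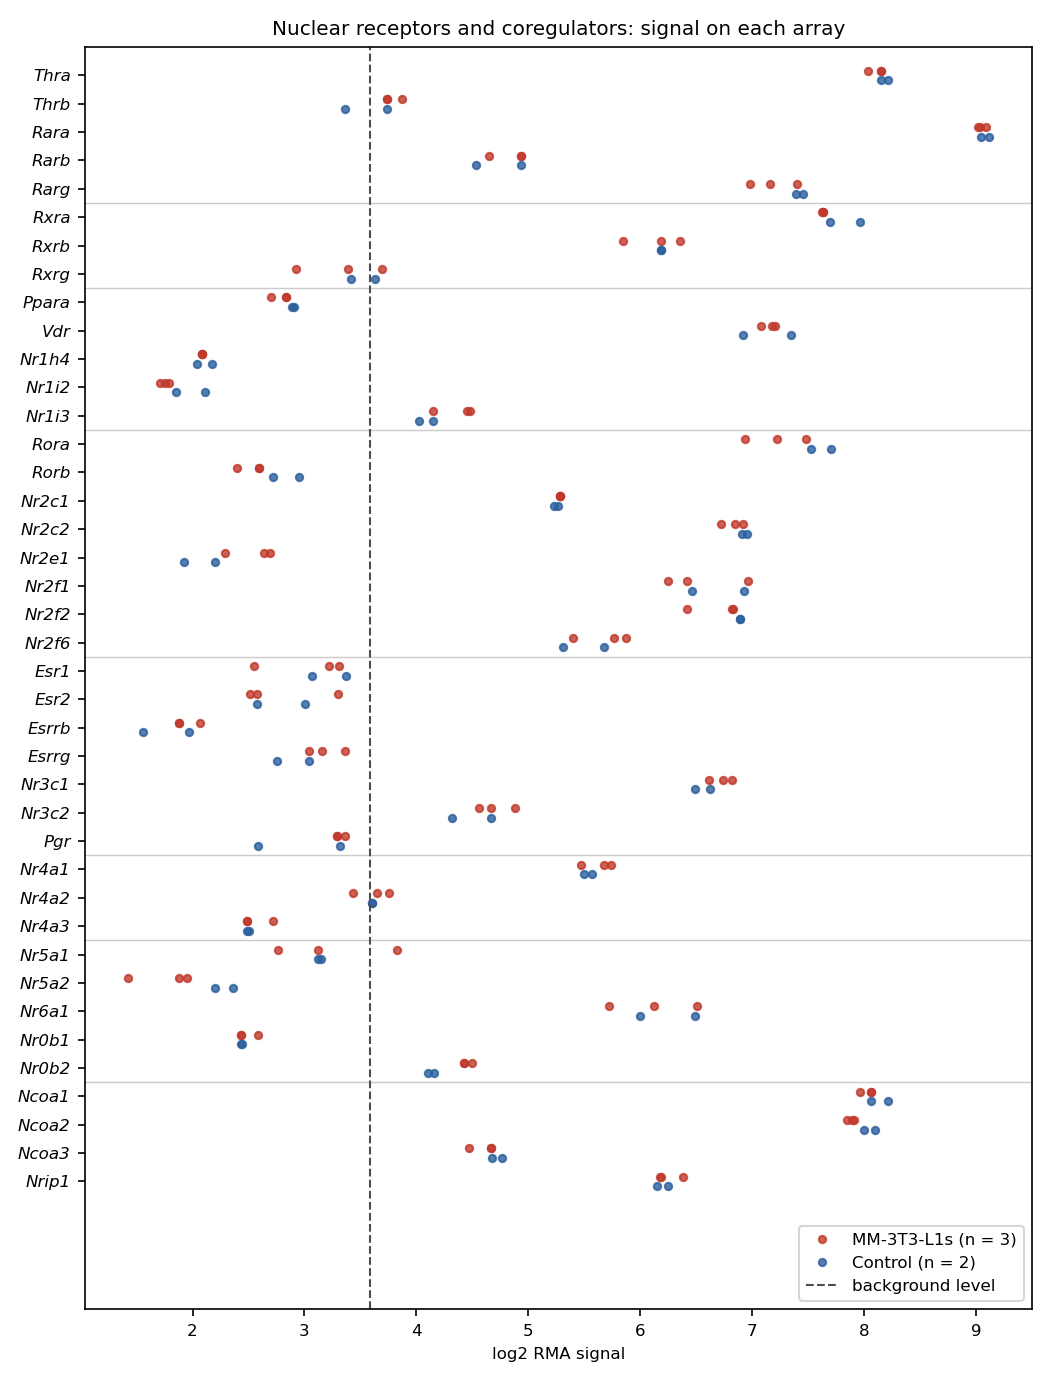
Log2 RMA signal (x axis) of the 40 measured members (rows) on each array, with 3 MM-3T3-L1 arrays as red points on the upper line of each row and 2 Control arrays as blue points on the lower line. Grey lines part the receptor classes, the dashed line is the background level of 3.59, and the points of both groups lie close together in most rows, with 15 genes at a mean on or below that level.

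A p that misses the threshold does not show that a gene was equal in both groups, so the 95% interval of each difference was set against a change of 1.5-fold. For 22 of the 40 members the whole interval lay within 1.5-fold in either direction (54.4% of all probe sets), and for 18 it reached past 1.5-fold on at least 1 side. Of the 22, 6 lay at or below the background level, where a narrow interval bounds the signal and not the expression. Among the 25 members above the background level, 16 had an interval within 1.5-fold (58% of named genes above background). These were *Thra*, *Rara*, *Rarb*, *Rxra*, *Rxrb*, *Vdr*, *Nr2c1*, *Nr2c2*, *Nr3c1*, *Nr4a1*, *Nr4a2*, *Nr0b2*, *Ncoa1*, *Ncoa2*, *Ncoa3* and *Nrip1*. The other 9 above the background level, for which a 1.5-fold change could not be told from none at this number of arrays, were *Thrb*, *Rarg*, *Nr1i3*, *Rora*, *Nr2f1*, *Nr2f2*, *Nr2f6*, *Nr3c2* and *Nr6a1*. Single arrays weighed on most of these small differences, and leaving out 1 array moved the log2FC by over 1.5 times for 22 of the 25, all but *Nr1i3*, *Nr0b2* and *Ncoa2*.

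**Figure D2:**
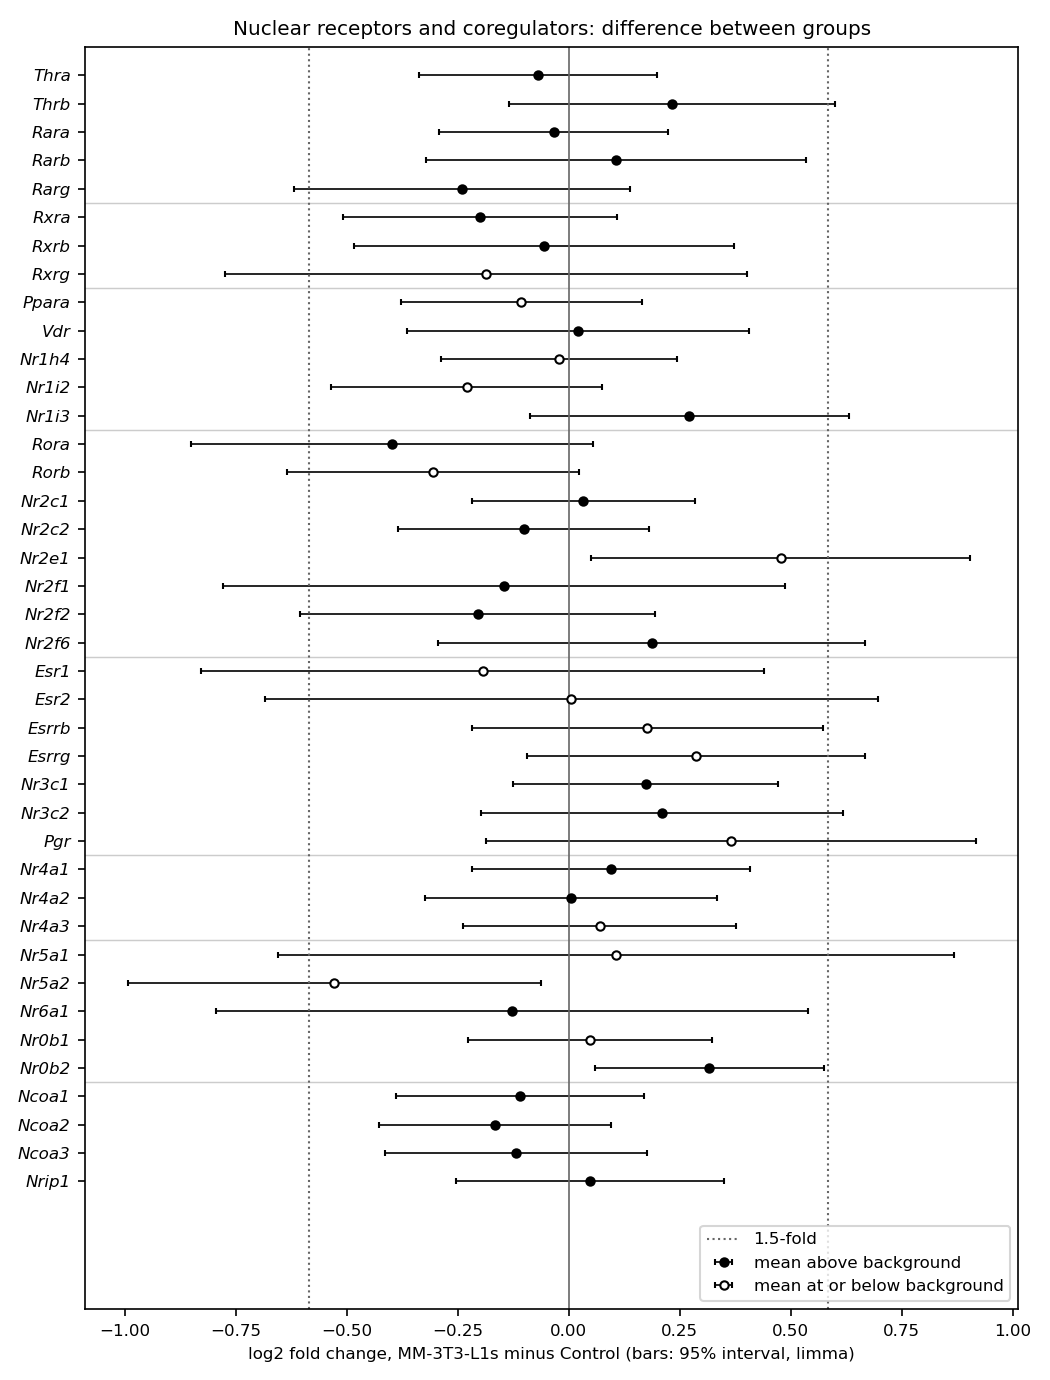
Log2FC of MM-3T3-L1s minus Control (x axis) for the 40 members (rows), with bars for limma's 95% interval, filled points for means above the background level, open points for the rest, and dotted lines at 1.5-fold. No point lies outside the dotted lines, and 22 intervals lie wholly between them.

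The retinoic acid receptors come first because 1 of them carries a well-known element for its own ligand. *Rarb* is a direct target of retinoic acid in many cells, through a repeat in the promoter of one of its transcripts. In the RefSeq promoter window of *Rarb* (GRCm38.p6, chr14:16575477-16575726, minus strand, the 250 bases before the start site, printed 5′ to 3′), a search for GTTCA repeated after 6 bases of any kind found 1 match, with 36 bases between it and the start. Capitals mark that match with the base before it, which together form the retinoic acid element.

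Rarb: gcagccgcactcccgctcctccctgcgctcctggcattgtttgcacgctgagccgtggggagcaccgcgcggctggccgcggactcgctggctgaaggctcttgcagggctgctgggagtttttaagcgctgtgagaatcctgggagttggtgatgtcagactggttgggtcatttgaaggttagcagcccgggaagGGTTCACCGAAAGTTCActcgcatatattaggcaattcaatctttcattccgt

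Searched on both strands, this repeat occurred in 25 of 32851 RefSeq promoter windows, which run from 250 bases before to 50 bases after a start (0.0761%), and *Rarb* was the only member among them, of 39 members matched by symbol to 58 windows. The letters searched spell the known *Rarb* element, so the match in *Rarb* and its rarity follow from that choice. Repeats spelled otherwise were not searched. The commoner hexamer AGGTCA, a single site for many receptors of this family that was searched the same way, occurred in 9 of those 58 windows (15.5%) and in 16.3% of all windows. A match is a description of the sequence and does not show that a factor was bound.

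*Rarb* gave signals of 4.94, 4.65 and 4.94 in MM-3T3-L1s and 4.53 and 4.94 in controls. The groups overlapped, and the same value stood on 3 of the 5 arrays. Its log2FC was 0.11 (SE 0.174, 95% interval -0.32 to 0.54). *Rara*, the retinoic acid receptor of broadest expression, gave 9.02, 9.03 and 9.08 in MM-3T3-L1s and 9.11 and 9.04 in controls. With a log2FC of -0.03 (SE 0.105, interval -0.29 to 0.22), it was among the tightest measured members. *Rarg*, the third retinoic acid receptor, gave 7.40, 6.98 and 7.16 in MM-3T3-L1s and 7.45 and 7.39 in controls, a log2FC of -0.24 (SE 0.153) whose groups overlapped by MM.1S replicate 1 alone. Without that array it was -0.35 (unadjusted p of 0.0479 from limma). It was -0.14 without MM.1S replicate 2 and -0.23 without MM.1S replicate 3, with unadjusted p-values of 0.363 and 0.255 from limma. Of 12 measured genes on a list of retinoic acid targets, none was called higher or lower, with a median log2FC of 0.16. The 1 member of that list with an unadjusted p of 0.05 or less was *Bhlhe40*, a repressor of the circadian system, with a log2FC of -0.49 (SE 0.12).

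The groups overlapped for both thyroid hormone receptors. *Thra* gave 8.15, 8.03 and 8.15 in MM-3T3-L1s and 8.15 and 8.21 in controls, with a log2FC of -0.07 (interval -0.34 to 0.20). *Thrb* lay just above the background level, at 3.73, 3.87 and 3.73 in MM-3T3-L1s and 3.36 and 3.73 in controls, with a log2FC of 0.23 (interval -0.13 to 0.60). Its value rested on the Control arrays, at 0.04 without Control replicate 1 and 0.42 without Control replicate 2. Of 11 measured genes on a list of thyroid hormone targets, 1 was called lower (1.44% of all probe sets) and none higher. This was *Thrsp*, a protein that goes with fat synthesis, with a log2FC of -0.64 (SE 0.14), while *Hr*, a corepressor of the thyroid hormone receptor, had 0.50 (SE 0.13) and missed the fold limit.

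The retinoid X receptors are the shared partners of the receptors above. *Rxra* gave 7.63 on each of the 3 MM.1S arrays and 7.97 and 7.69 in controls, so the MM.1S group lay wholly under the controls. The log2FC was -0.20 (SE 0.125, interval -0.51 to 0.11, adjusted p = 0.695 from limma). It was -0.06 without Control replicate 1 and -0.34 without Control replicate 2. *Rxrb* gave 6.18, 6.36 and 5.84 in MM-3T3-L1s and 6.18 on both Control arrays, a log2FC of -0.06 (interval -0.48 to 0.37). *Rxrg*, which is best known from muscle and brain, crossed the background level from array to array, at 2.92 to 3.69 in MM-3T3-L1s and 3.41 to 3.63 in controls.

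Among the sensors of lipids, bile acids, vitamin D and foreign chemicals, 2 of 5 measured members lay above the background level. *Vdr*, the vitamin D receptor, gave 7.20, 7.08 and 7.18 in MM-3T3-L1s and 7.34 and 6.92 in controls. The MM.1S arrays lay between the 2 Control arrays, and the log2FC was 0.02 (SE 0.156, interval -0.36 to 0.41). *Nr1i3*, which encodes the constitutive androstane receptor of the liver, gave 4.48, 4.14 and 4.45 in MM-3T3-L1s and 4.03 and 4.14 in controls. Its log2FC was 0.27 (SE 0.145, adjusted p = 0.682 from limma), or 0.38 without MM.1S replicate 2 (unadjusted p of 0.0276 from limma). It was 0.21 without MM.1S replicate 1 and 0.23 without MM.1S replicate 3, with unadjusted p-values of 0.245 and 0.213 from limma. With 1 Control array left, it was 0.21 without Control replicate 1 and 0.33 without Control replicate 2. *Ppara*, the fatty acid receptor that drives oxidation in liver, lay below the background level at 2.70 to 2.84 in MM-3T3-L1s and 2.89 to 2.90 in controls. *Nr1h4*, the bile acid receptor FXR, and *Nr1i2*, the xenobiotic receptor PXR, lay at 2.17 or lower on every array, with log2FC values of -0.02 and -0.23. For receptors read at or below the background level the array gives only a ceiling on expression. On a list of vitamin D targets, 1 of 9 measured genes was called higher (0.91% of all probe sets) and none lower. This was *Trpv5*, a calcium channel of the kidney, with 0.90 (SE 0.22) at signals below background on every array.

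*Pparg*, for comparison, gave 11.04 to 11.06 in MM-3T3-L1s and at most 11.01 in controls, a log2FC of 0.05 (SE 0.101). Of 31 measured genes on a list of PPAR targets, 2 were called lower (1.44% of all probe sets), none was called higher and 29 were neither. The median log2FC of the list was 0.05. The lower ones were *Pdk4*, a kinase that shuts pyruvate dehydrogenase, at -0.71 (SE 0.11), and *Cpt1a*, which starts the import of fatty acids into mitochondria, at -0.68 (SE 0.14). In the other direction, *Aqp7*, the glycerol channel of adipocytes, had a log2FC of 0.54 (SE 0.17) and *Fabp4*, their fatty acid carrier, 0.32 (SE 0.11), at a fold change below the limit. At an unadjusted p of 0.05 or less from limma, 5 genes of the PPAR list were above controls (3.48% of all probe sets) and 3 below (4.11%). Of 13 measured genes on a list of LXR targets, *Apod* and *Fasn* were called lower (1.44% of all probe sets), and none was called higher. *Apod* had a log2FC of -1.91 (SE 0.36) and *Fasn* -0.79 (SE 0.19). Without Control replicate 1 the PPAR and LXR lists each had 1 gene called lower. The LXR gene *Nr1h3*, which is not among the members, gave 5.48 to 5.75 in MM-3T3-L1s and 5.75 and 6.38 in controls, with a log2FC of -0.43 (SE 0.21).

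The 2 retinoic acid-related orphan receptors gave the lowest log2FC values among the ROR, testicular, tailless and COUP-TF receptors. *Rora*, which drives clock genes and restrains fat cell formation in mouse cells, gave 7.22, 7.48 and 6.94 in MM-3T3-L1s and 7.70 and 7.52 in controls. The groups did not overlap. The log2FC was -0.40 (SE 0.183, interval -0.85 to 0.05), a fold of 1.32, with an unadjusted p of 0.0745 and an adjusted p of 0.668 from limma. Among the members above the background level this was the largest difference in size. The log2FC was -0.53 without MM.1S replicate 2 (unadjusted p of 0.0247 from limma). It was -0.40 without MM.1S replicate 1 and -0.26 without MM.1S replicate 3, with unadjusted p-values of 0.143 and 0.138 from limma. In fits with 1 Control array left, it was -0.31 without Control replicate 1 and -0.49 without Control replicate 2. With an intensity trend and robust prior the unadjusted p from limma was 0.0495. With the mean over all its probe sets the log2FC was -0.29 (unadjusted p of 0.181 from limma).

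*Rora* has 3 probe sets and *Rorb* 2, and the choice among them bears on the call. The probe set used for *Rora* is TSUnmapped00000043.mm.2. A second, TC0900000892.mm.2, gave 5.65, 5.92 and 5.33 in MM-3T3-L1s and 6.06 and 6.36 in controls, a log2FC of -0.58 (SE 0.204) with an unadjusted p of 0.0307 from limma, just short of the fold limit. In the third, TSUnmapped00000044.mm.2, which lay near the background level, the groups overlapped and the log2FC was 0.10 (SE 0.233). The 3 readings of *Rora* on 1 array share its RNA and are not replicates.

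*Rorb*, a related receptor of retina and brain, was below the background level in both its probe sets. The one used gave 2.59, 2.59 and 2.40 in MM-3T3-L1s and 2.95 and 2.72 in controls, a log2FC of -0.31 (SE 0.133). The other gave 2.07, 2.22 and 2.21 in MM-3T3-L1s and 2.42 and 3.17 in controls, a log2FC of -0.63 (SE 0.228) with an unadjusted p of 0.0344 from limma. It would count as lower by the study's thresholds, at signals that lie among those of the olfactory and taste receptor genes.

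**Figure D3:**
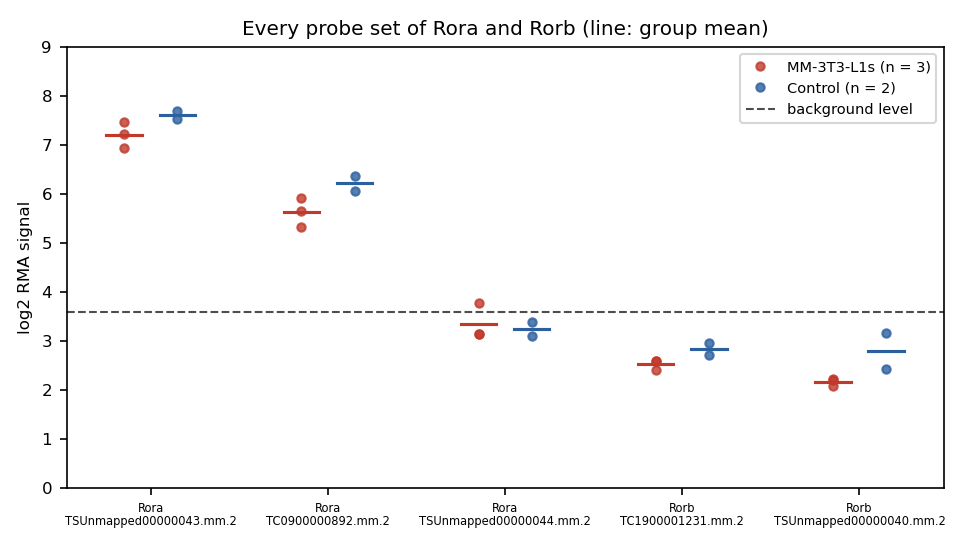
Log2 RMA signal (y axis) of each probe set of *Rora* and *Rorb* on every array, with MM-3T3-L1s in red left of Control in blue, a short line for the mean of each group and a dashed line at the background level. The MM.1S points lie below both Control points in 4 of the 5 probe sets, and 2 of these 4 lie above the background level.

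Clock genes with ROR elements were read beside *Rora*. Of 7 on such a list, none was called in either direction and none had an unadjusted p of 0.05 or less. *Arntl*, the clock activator that ROR proteins drive, had a log2FC of 0.01 (SE 0.22), *Nr1d1*, the repressor that opposes them, 0.08 (SE 0.14), and *Nfil3*, -0.13 (SE 0.12).

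The COUP-TF receptors and their relative *Nr2f6* are orphan receptors that control development, and their groups overlapped in 2 of 3 cases. *Nr2f2* gave 6.82, 6.83 and 6.42 in MM-3T3-L1s and 6.89 on both Control arrays. MM.1S replicate 3 stood furthest under the controls, and the log2FC was -0.21 (SE 0.162), or -0.07 without that array. *Nr2f1* gave 6.96, 6.25 and 6.42 in MM-3T3-L1s and 6.92 and 6.46 in controls, and spread widely within both groups, with a log2FC of -0.15 (SE 0.256). *Nr2f6*, a repressor of cytokine genes in T cells, gave 5.76, 5.40 and 5.87 in MM-3T3-L1s and 5.67 and 5.31 in controls, a log2FC of 0.19 (SE 0.195) that was 0.37 without Control replicate 1 and 0.00225 without Control replicate 2.

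The testicular receptors *Nr2c1* and *Nr2c2*, orphan receptors found in many tissues, were among the steadiest genes. *Nr2c1* gave 5.28 on each MM.1S array and 5.27 and 5.23 in controls. These values lay apart, but by a log2FC of 0.03 (SE 0.102, interval -0.22 to 0.28), so that lying apart says little of size where the arrays of a group read nearly the same. *Nr2c2* gave 6.85, 6.91 and 6.72 in MM-3T3-L1s and 6.95 and 6.91 in controls, a log2FC of -0.10 (interval -0.38 to 0.18). *Nr2e1*, the tailless receptor of neural stem cells, gave 2.29, 2.69 and 2.64 in MM-3T3-L1s and 2.20 and 1.92 in controls. Its log2FC of 0.48 (SE 0.173, adjusted p = 0.63 from limma) was the highest of all members, at signals below the background level on every array. Without MM.1S replicate 1 it was 0.60 with an unadjusted p of 0.0132 from limma and would have been called higher. It was 0.40 without MM.1S replicate 2 and 0.43 without MM.1S replicate 3, with unadjusted p-values of 0.0933 and 0.0884 from limma. It was 0.62 without Control replicate 1 and 0.34 without Control replicate 2. *Nr2e1* was not called in either of these fits, which left 1 Control array each.

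The receptor for the dexamethasone in the medium, *Nr3c1*, was well above the background level in both groups. It gave 6.74, 6.82 and 6.62 in MM-3T3-L1s and 6.62 and 6.48 in controls. The lowest MM.1S array and the highest Control array differed in the third decimal only. The log2FC was 0.17 (SE 0.121, interval -0.13 to 0.47, adjusted p = 0.715 from limma). *Nr3c2*, the mineralocorticoid receptor, which also binds glucocorticoids, gave 4.67, 4.88 and 4.56 in MM-3T3-L1s and 4.67 and 4.32 in controls, a log2FC of 0.21 (SE 0.165) that was 0.39 without Control replicate 1 and 0.03 without Control replicate 2.

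A list of genes that the glucocorticoid receptor is known to induce was read beside *Nr3c1*. Of its 21 measured genes, 3 were called lower, none was called higher and 18 were neither, where 1.44% of all probe sets were called lower, and 16 had fold changes below 0. Their median log2FC was -0.29, beside a median of 0.01 over all named genes, and their groups lay apart with MM-3T3-L1s under the controls for 8 and over them for 1. Of these 21 genes, 20 were above the background level, and among all named genes above it 55.8% had fold changes below 0, 17.7% lay apart under the controls and 10.3% lay apart over them. The list was chosen with earlier results of these data known, so its counts are a description and not a test. *Pdk4*, on 3 of the lists, gave 6.01, 5.95 and 5.97 in MM-3T3-L1s and 6.78 and 6.59 in controls, with a log2FC of -0.71 (SE 0.114, adjusted p = 0.36 from limma). *Errfi1*, an inhibitor of the epidermal growth factor receptor, gave 6.51, 6.53 and 6.19 in MM-3T3-L1s and 7.18 on both Control arrays, with a log2FC of -0.77 (SE 0.144, adjusted p = 0.434). *Ddit4*, an inhibitor of mTORC1 that stress also induces, gave 6.46, 5.98 and 6.26 in MM-3T3-L1s and 7.33 and 6.51 in controls, with -0.69 (SE 0.275, adjusted p = 0.652).

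The other genes of this list did not pass both thresholds. *Per1*, a clock gene, had a log2FC of -0.46 (SE 0.138) and *Sgk1*, a kinase of ion transport, -0.42 (SE 0.126), both short of the fold limit. *Fkbp5*, the cochaperone that tempers the receptor, had 0.07 (SE 0.12), *Tsc22d3*, which encodes the anti-inflammatory protein GILZ, had -0.35 (SE 0.192), and *Angptl4*, a secreted inhibitor of lipoprotein lipase, had 0.44 (SE 0.161). *Pdk4* and *Angptl4* are also on the list of PPAR targets, and no gene of the list had an adjusted p below 0.05. Leaving out single arrays gave 2 to 4 lower genes on this list, with 2 without Control replicate 1, or without any one MM.1S array. The last media held no added dexamethasone, and the activity of the receptor itself was not measured.

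The other steroid and estrogen-related receptors lay below the background level in the mean. *Esr1* and *Esr2*, the estrogen receptors, had log2FC values of -0.19 (SE 0.257) and 0.01 (SE 0.28), with overlapping groups. *Esrrb* and *Esrrg*, orphan relatives of these that bind no estrogen, had 0.18 (SE 0.16) and 0.29 (SE 0.154). *Pgr*, the progesterone receptor, gave 3.29, 3.29 and 3.36 in MM-3T3-L1s and 2.58 and 3.32 in controls. Control replicate 1 stood apart, and the log2FC of 0.37 (SE 0.224) was 0.00 without it and 0.73 without Control replicate 2. Each of these fits left 1 Control array. On a list of estrogen receptor targets, 1 of 7 measured genes was called higher (0.91% of all probe sets). This was the chemokine gene *Cxcl12*, with a log2FC of 0.66 (SE 0.13). *Esr1* and *Esr2* stood below the background level on all 5 arrays, where the array gives only a ceiling on expression. The cause of the *Cxcl12* difference was not tested. Of 24 measured genes on a list of targets of the estrogen-related receptors, 2 were called lower (1.44% of all probe sets) and none higher. These were *Cox6a2*, a muscle form of a cytochrome c oxidase subunit, at -0.66 (SE 0.12), and *Pdk4*. The median log2FC of the list was 0.01.

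The NR4A receptors are induced quickly by many stimuli and need no ligand. *Nr4a1*, also called Nur77, gave 5.47, 5.74 and 5.67 in MM-3T3-L1s and 5.57 and 5.50 in controls, with a log2FC of 0.09 (SE 0.127, interval -0.22 to 0.41). *Nr4a2* lay at the background level, at 3.43 to 3.75 in MM-3T3-L1s and 3.61 on both Control arrays, and *Nr4a3* below it, at 2.49 to 2.72 in MM-3T3-L1s and 2.49 to 2.50 in controls. The intervals of *Nr4a1* and *Nr4a2* lay within 1.5-fold, and for *Nr4a3* the signal bounds no change in expression. Of 18 other immediate early genes, 2 were called higher (0.91% of all probe sets) and none lower. These were *Atf3*, a stress-induced repressor, at 0.72 (SE 0.18), and *Fos*, a subunit of AP-1, at 0.60 (SE 0.24). Without Control replicate 1 none of the 18 was called higher, and without any one of the MM.1S arrays 1 was.

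The remaining members are the NR5A and NR6A orphan receptors and the NR0B proteins, which lack a DNA-binding domain. *Nr0b2*, which encodes SHP, the small heterodimer partner that represses other nuclear receptors and in liver answers to bile acids, had the smallest p of all members. Its probe set TC0400001612.mm.2 gave 4.43, 4.43 and 4.49 in MM-3T3-L1s and 4.16 and 4.11 in controls. MM-3T3-L1s exceeded the controls by more than the spread within either group, but MM.1S replicates 1 and 2 shared their value to the last decimal deposited. The log2FC was 0.32 (SE 0.104, interval 0.06 to 0.57), a fold of 1.25, with an unadjusted p of 0.024 and an adjusted p of 0.596 from limma. It stayed between 0.29 and 0.34 when each array was left out in turn, short of the fold limit throughout, and the unadjusted p passed 0.05 without Control replicate 2 (0.0688 from limma), with the replicate block (0.0865) and with an intensity trend and robust prior (0.081). It was the 1 member of 25 above the background level at an unadjusted p of 0.05 or less, where 9.15% of named genes above that level reached it.

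*Nr5a2*, which encodes LRH-1, a receptor of liver, pancreas and ovary that SHP represses, gave 1.95, 1.43 and 1.88 in MM-3T3-L1s and 2.20 and 2.36 in controls. The log2FC was -0.53 (SE 0.189, unadjusted p of 0.0324 and adjusted p of 0.625 from limma), at signals far below the background level. It would have been called lower without MM.1S replicate 1, at -0.63, or without MM.1S replicate 3, at -0.59, but not without MM.1S replicate 2, at -0.36. The log2FC was -0.61 without Control replicate 1 and -0.44 without Control replicate 2. It was not called lower in either of these fits, which left 1 Control array each. *Nr5a1*, the steroidogenic factor of adrenal and gonad, gave 3.12, 2.76 and 3.83 in MM-3T3-L1s and 3.14 and 3.12 in controls, the widest spread within a group among the members. *Nr0b1*, a repressor of *Nr5a1* in those organs, lay at 2.43 to 2.58 in MM-3T3-L1s and 2.43 to 2.44 in controls. *Nr6a1*, the germ cell nuclear factor, which silences pluripotency genes, gave 6.12, 5.72 and 6.51 in MM-3T3-L1s and 6.49 and 6.0 in controls, with a log2FC of -0.13 (SE 0.27) and overlapping groups.

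The 4 measured coregulators lay above the background level, and each had an interval within 1.5-fold. *Ncoa1*, also called SRC-1, gave 7.96, 8.06 and 8.06 in MM-3T3-L1s and 8.21 and 8.06 in controls, a log2FC of -0.11 (SE 0.113). *Ncoa2*, whose loss protects mice from obesity, gave 7.91, 7.84 and 7.89 in MM-3T3-L1s and 8.0 and 8.10 in controls. These lay apart, with a log2FC of -0.17 (SE 0.106, interval -0.43 to 0.09, adjusted p = 0.696 from limma). *Ncoa3*, the third of the family, gave 4.66, 4.47 and 4.66 in MM-3T3-L1s and 4.76 and 4.68 in controls, also apart, with -0.12 (SE 0.119). *Nrip1*, which encodes RIP140, a corepressor that restrains heat-producing genes in fat, gave 6.38, 6.17 and 6.18 in MM-3T3-L1s and 6.24 and 6.15 in controls, with 0.05 (SE 0.122). All 3 NCOA genes had fold changes below 0 with intervals that included 0, and the largest was 1.12-fold.

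Of 27 other coregulators with a probe set, none was called in either direction, with a median log2FC of 0.00. An unadjusted p of 0.05 or less from limma was reached by 3 of the 27, against 7.58% of all probe sets and 9.15% of named genes above background. These were *Trim24*, a chromatin reader that binds nuclear receptors, with a log2FC of -0.46 (SE 0.12), *Brd8*, with -0.35 (SE 0.13), and *Ncoa6*, with -0.35 (SE 0.14). Of 6 other nuclear receptors measured, none was called and none had such a p.

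**Figure D4:**
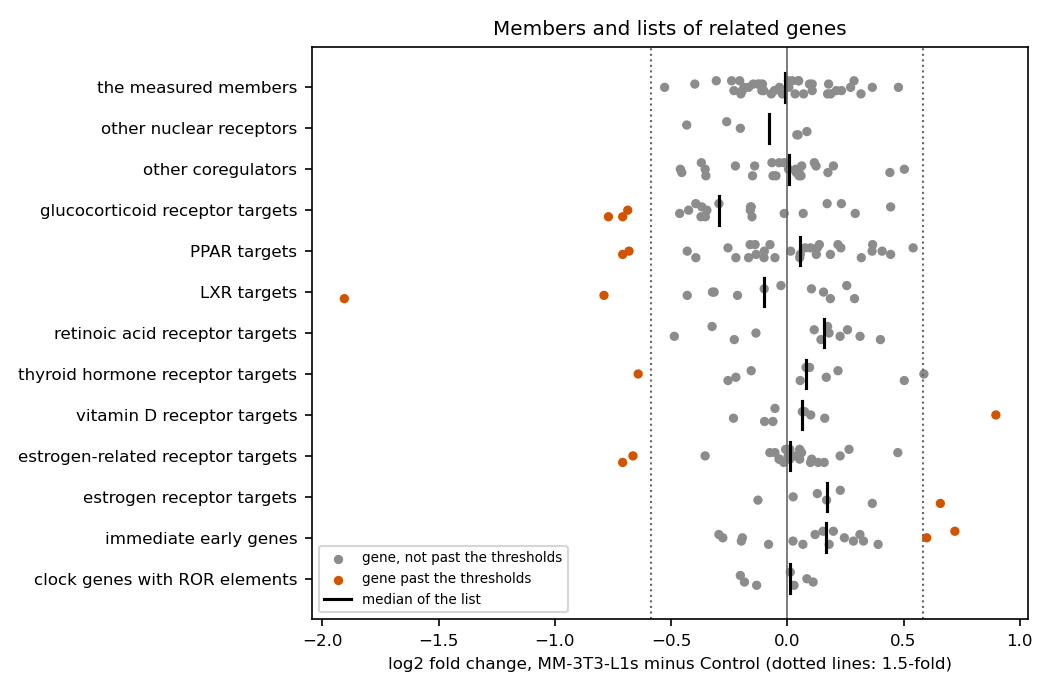
Log2FC of MM-3T3-L1s minus Control (x axis) for the 40 members and for 12 lists of related genes (rows), with 1 point per gene, orange where it passed the thresholds, a black line at each median and dotted lines at 1.5-fold. The members and the other receptors and coregulators have no orange point, and the glucocorticoid receptor targets have the lowest median, at -0.29. The lists were chosen with earlier results of these data known.

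Some SDs within a group are 0 or near it. Of the 40 members, 18 had a value that 2 or 3 of the 5 arrays shared to the last decimal deposited, as did 27.3% of all probe sets. *Nr1h4* read the same on all 3 MM.1S arrays and *Rxrb* on both Control arrays and MM.1S replicate 1. Such repeats stand in the deposited values, and the SE of limma, which borrows spread from all probe sets, was at least 0.101 for every probe set.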

How the data were processed

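Total RNA of 5 samples was hybridised to Clariom S Mouse arrays (Affymetrix). The deposited values are log2 signals that the authors made from the scans in Partek by RMA, which corrects the background, equalises the distributions and summarises probes. Whether these 5 arrays were normalized alone is not given in the sources used here. RMA draws arrays together, and low signals are compressed. The labels give 50 ng of input RNA, and the study's methods give another amount. Array medians were 4.47 to 4.53 in MM-3T3-L1s and 4.48 to 4.52 in controls, and pairs of arrays correlated at 0.985 to 0.993. The number of arrays limits the precision.

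Groups were compared with lmFit and eBayes of limma 3.58.1 in R 4.3.3, group as the only term (3 residual degrees of freedom, 2.79 from the prior), two-sided, on all 22206 probe sets without a filter, and adjusted over all of them. Of these, 19572 carried 1 symbol and 2634 are unnamed here, a count that includes any that carried several symbols. The fit was tested on simulated data. Members and lists were chosen with earlier results of these data known. Full values were given for members with an unadjusted p of 0.05 or less, those above background with groups apart, and the highest in each class, and further members were then added. From lists, genes past the thresholds were named, and others after their values were seen. Alternatives were the methods' ANOVA, a trend with robust prior, no dim probe sets, quantile normalization, median centring, a replicate block, array weights, the mean over probe sets, other fold limits and leaving out each array.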

Additional observations from a re-analysis of the deposited data

How the results depend on the processing

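Array number limits these results, and 15 of 40 members lie in the background, where no level can be read. The sign of 23 members was the same in every alternative run. With 0 members called higher and 0 lower, a fold limit of 1.3 gave 1 higher (*Nr2e1*) and 1 lower (*Nr5a2*), and a limit of 2 gave 0 and 0. Quantile normalization once more and the replicate block each gave 1 lower, *Nr5a2*, at -0.59 both times. Counting all probe sets of the members, chosen after seeing the data, gave 1 lower (*Rorb*) and 5 at an unadjusted p of 0.05 or less, against 3. Leaving out each array gave 0 to 1 higher, 0 to 1 lower and 2 to 4 at that p. The count at that p was 2 with the methods' unmoderated test, 1 without dim probe sets, 1 with the replicate block, and 3 or 4 otherwise. Replicate numbers were read as sample names, since the labels state no pairing. Deviations of same-numbered arrays correlated at -0.03 and 0.06. These values cannot show or exclude a pairing, because the deviations of 2 Control arrays mirror each other. The cause of these moves was not tested. Quantile normalization reversed *Rara* (0.00463), *Rxrb* (0.0141), *Esr2* (-0.0813), *Nr4a2* (-0.0596), *Nr4a3* (-0.0191) and *Nr0b1* (-0.0365). Median centring reversed *Esr2* (-0.00076) and *Nr4a2* (-0.00231), and array weights reversed *Nr5a1* (-0.000655). The replicate block reversed *Rxrb* (0.0866), *Rxrg* (0.0192), *Nr4a2* (-0.0128), *Nr4a3* (-0.00807), *Nr5a1* (-0.189) and *Nr0b1* (-0.00216). Across the arrays left out, log2 fold changes spanned 0 for *Rara* (-0.069 to 0.000627), *Rarb* (-0.0964 to 0.31), *Rxrb* (-0.17 to 0.0866), *Rxrg* (-0.365 to 0.0192), *Vdr* (-0.189 to 0.232), *Nr1h4* (-0.0905 to 0.0469), *Nr2f1* (-0.378 to 0.0842), *Esr1* (-0.343 to 0.0438), *Esr2* (-0.245 to 0.219), *Esrrb* (-0.026 to 0.381), *Pgr* (-0.00415 to 0.735), *Nr4a2* (-0.0662 to 0.0921), *Nr4a3* (-0.00807 to 0.108), *Nr5a1* (-0.189 to 0.345), *Nr6a1* (-0.375 to 0.12), *Nr0b1* (-0.00216 to 0.0728) and *Nrip1* (-0.0201 to 0.0961). Of the list counts under these alternatives, 426 stayed within 1.5 times and 42 did not.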
